A study of Mus musculus with 6 samples.

Results

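Gene expression in the first lumbar segment (L1) of the mouse spinal cord was compared between a tumour placed inside a nerve and the same tumour cells placed under the skin. The comparison uses 4 of the 6 arrays of the series: the 2 labelled N-inv against the 2 labelled SC. All probe sets other than the array's own control probes were read, 45037 in number, of which 27022 were bright enough to test. The tumour cells were Capan-1, an established human pancreatic cancer line. In N-inv they were injected into the left sciatic nerve, and the SC group was the subcutaneous model. All hosts were male SCID mice (severe combined immunodeficiency), which lack working T and B cells but keep myeloid cells such as neutrophils and microglia. The labels give an age of 9 weeks for the mice as obtained and of 15 weeks for the samples. The 2 arrays of the PBS control group are shown beside the results as a reference level and entered no test. Every comparison here is therefore between hosts that carried tumour cells, and it differs in where those cells were. Whether the arrays of 1 group stem from different animals is not said in the labels, so p-values express only the spread of these samples, which can be technical.

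Nerve fibres of the sciatic nerve arise from motor neurons of the lumbar cord and from sensory neurons of the dorsal root ganglia, whose central branches enter the cord. After damage to a peripheral nerve, microglia, the resident phagocytes of the cord, and astrocytes, its star-shaped support cells, are known to become reactive, and injured neurons switch on a regeneration programme. A tumour outside the nervous system can act on the cord through the blood, by cytokines, stress hormones and circulating leukocytes. The title of the study names nerve invasion, astrocyte activation and cachexia, the wasting that accompanies cancer.

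The 4 arrays carried the genes of spinal cord. Snap25, Nefl and Rbfox3 of neurons, Aqp4 of astrocytes, Mbp and Mag of oligodendrocytes, Cx3cr1 and Csf1r of microglia and Hoxa10, Hoxc10 and Hoxd10 of the lumbar position all passed the filter. Cd3e, Cd79a and Ms4a1 of lymphocytes, Adipoq of fat and Scn10a and Trpv1 of ganglion sensory neurons did not. Of 17 listed genes of ganglion sensory neurons, however, 6 passed. Their sum was 17267 and 15751 in N-inv, 10215.6 and 14202.8 in SC and 8847.1 and 9647 in PBS. Of 12 skeletal muscle genes 3 passed, and Ckm did not. Acta1, the muscle actin, was among those that passed, at 262.7 and 294.7 against 76.6 and 160.5 and 235.8 and 278.3 in PBS, while the sum of the 3 genes was 6780.3 and 7129 with the nerve tumour, compared with 8196 and 7600.2 with the subcutaneous tumour. The SC arrays differed from each other more than the N-inv arrays did. Over 12643 genes the median absolute log2 difference was 0.29 between the SC arrays and 0.14 between the N-inv arrays. A difference of 1 or more separated the SC arrays in 515 genes and the N-inv arrays in 116. SC replicate 2 also went against its label in 1 respect. Xist, the RNA that silences one X chromosome in female cells, measured 12764 in SC replicate 2, 223.3 in SC replicate 1, 136.8 and 169.5 with the nerve tumour and 148.0 and 135.4 in the PBS controls, while the labels call every animal male. The Y-linked gene Eif2s3y was present in every array, at 2323 and 2590.4 with the nerve tumour and 1313 and 3079.5 with the subcutaneous tumour, and so were Kdm5d, at 690.9 and 806.9 against 516.1 and 605.2, and Uty, at 437.9 and 448.1 against 389.5 and 487.1. The ratio of 3' to 5' Actb control probes, which is higher where RNA is more degraded, was 3.81 and 4.70 in SC, compared with 3.32 and 3.42 in N-inv. For Gapdh SC had ratios of 3.52 and 3.38, beside 3.12 and 3.38 for N-inv, so SC replicate 2 did not stand apart there. Their part in the results below was not tested. Because the SC arrays differ, the level in each SC array is given for the genes described, and list medians are given against each SC array alone as well. The values against SC replicate 1 alone are those without the array that holds Xist. SC replicate 1 was, however, the array least like the rest. Its median correlation with the other arrays was 0.955, compared with 0.961 for SC replicate 2 and 0.966 and 0.965 for N-inv. As deposited it also had the highest median intensity, 279.2, beside 241.7 in SC replicate 2 and 250.7 and 250 in N-inv.

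With 2 arrays a side, 0 of 27022 probe sets (0%) passed an adjusted p of 0.05 in limma, a linear model with a variance shared across probe sets. The smallest adjusted p in limma was 0.695. An unadjusted p under 0.05 was reached by 1838 probe sets, 6.8% of those tested, where 1351 would be counted if no probe set differed. They comprised 1196 higher in N-inv (4.43% of probe sets) and 642 lower (2.38%). The higher ones made up 65.1%, but the share was 48.8% with the intensities as deposited and 53.0% after quantile normalization, so the balance of higher and lower genes depends on the scaling. Since the smallest two-sided p that exact permutation of 4 arrays allows is 0.333, the description below rests on whether the arrays overlap. A gene is said not to overlap where both SC arrays lie on the same side of both N-inv arrays. By this rule 3195 of 12643 genes lay higher in N-inv (25.3%) and 1441 lay lower (11.4%). The corresponding shares were 20.8% and 19% with the values as deposited, and 20.8% and 19.3% after quantile normalization. If the 4 arrays were interchangeable, a gene would not overlap, in 1 direction or the other, with a probability of 0.333. Most of the genes without overlap could therefore be separated without any difference between the groups. Without regard to overlap, 60.4% of genes were above 0 in N-inv minus SC, 71.4% against SC replicate 1 alone and 44.8% against SC replicate 2 alone, and these are the shares against which counts of higher genes should be read. A log2 difference of at least 1 in size was found in 168 genes. Of these, 91 were higher with no overlap (0.72%), 55 were lower with no overlap (0.435%), and in the other 22 (0.174%) the arrays overlapped. Each value below is an intensity scaled to a common median of 250.35, given as replicate 1 and replicate 2, and each difference is N-inv minus SC on the log2 scale after adding 25.035.

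The genes that stood highest above SC included a calcium sensor, a protease inhibitor, a secreted neuronal protein and a marker of microglia, and in all of them both SC arrays lay below both N-inv arrays. They were ranked by the gap between the lower N-inv array and the higher SC array, so their separation is a property of the choice. Kcnip3, a neuronal calcium-binding protein that modulates A-type potassium channels and transcription, measured 855.4 and 790.8 with the nerve tumour and 252.1 and 242.6 with the subcutaneous tumour. The SC arrays nearly coincided, the difference was 1.64 ± 0.18 (SE), and the second probe set of the gene did not overlap either. Serpinb1a, an inhibitor of neutrophil proteases, measured 5408 and 4626 with the nerve tumour and 1542 and 1555 with the subcutaneous tumour, a difference of 1.68 ± 0.19 (SE). PBS lay near N-inv for both genes, at 690.2 and 558.6 for Kcnip3 and 4241 and 3811 for Serpinb1a, so the SC arrays were the ones that stood apart. Nell2, a secreted glycoprotein of neurons, had the same arrangement, with 4261 and 4201 against 1549 and 2033 in SC and 3529 and 3928 in PBS.

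Nnat, an imprinted gene that encodes a small membrane protein of neurons and endocrine cells, was arranged differently. It measured 2914 and 2809 with the nerve tumour and 1241 and 1145 with the subcutaneous tumour, and PBS at 1312 and 1554 lay close to SC, so here the N-inv arrays stood apart. The difference was 1.25 ± 0.18 (SE), at 1.19 against SC replicate 1 and 1.30 against SC replicate 2. Ankrd23, an ankyrin repeat protein first described in striated muscle, also had PBS near SC, at 144.5 and 121.8 beside 141.6 and 114.1, with N-inv at 294.8 and 313.0. Slco2b1, an organic anion transporter, measured 1355 and 1196 against 619.3 and 546.2 in SC, and Ly86, a secreted partner of the Toll-like receptor relative Cd180, measured 2083 and 1615 against 791.8 and 787.2. PBS lay between the groups for both genes.

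Most of the other genes of this ranking were dim in SC. Scrn2 measured 351.5 and 314.2 with the nerve tumour and 35.3 and 75.9 with the subcutaneous tumour, Derl3, a protein of endoplasmic reticulum quality control, 256.3 and 318.4 against 44.7 and 76.1, and Tmem138, a protein of the cilium, 286.2 and 288.1 against 125.0 and 84.3. Their PBS arrays measured 368.7 and 183.1, 240.4 and 92.6 and 251.2 and 308.7. Rlbp1, a retinaldehyde-binding protein, measured 366.9 and 385.0 against 189.5 and 59.4, and its difference was 0.90 against SC replicate 1 and 2.25 against SC replicate 2. Gm2629 and Zfp524 completed the dim genes, with 219.5 and 311.0 against 19.5 and 85.7 and 254.8 and 235.2 against 114.7 and 65.3. In 7 of the 15 genes, among them these dim ones, the SC mean lay under the filter cutoff of 152.36, so they were tested because N-inv was bright. Gjc3, a connexin of oligodendrocytes, at 1144 and 1054 against 359.9 and 554.3, and Jrk, at 731.2 and 628.2 against 329.5 and 312.1, were each separated by 1 of their 2 tested probe sets only.

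Genes that stood furthest below SC were led by neutrophil granule genes, which are described later, and otherwise held a potassium channel, a vessel-destabilising ligand and a gene induced by fasting. Both SC arrays lay above both N-inv arrays for all 15, because the genes were ranked by that gap. Kcnj13, an inward rectifier potassium channel of epithelia such as choroid plexus, measured 105.1 and 87.9 with the nerve tumour and 335.1 and 321.4 with the subcutaneous tumour, a difference of -1.54 ± 0.19 (SE) with an unadjusted p of 0.000197 in limma. The SC arrays agreed closely, and PBS at 296.9 and 263.2 lay near SC, which leaves the N-inv arrays as the ones apart. Depp1, a FoxO target induced by fasting, measured 478.7 and 571.7 against 1423 and 1233, with PBS at 1176 and 880.3. Its second probe set was separated further, at 39.6 and 65.4 against 480.3 and 727.5.

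Ank3, the ankyrin that anchors sodium channels at the axon initial segment, was the brightest of these genes. It measured 9086 and 7378 with the nerve tumour and 18511 and 17629 with the subcutaneous tumour, with PBS at 10498 and 11214, so that SC was apart and its arrays agreed. Of 6 tested Ank3 probe sets, however, 1 was lower and 1 was higher without overlap, and the value holds for the brightest alone. Hmbox1, a homeobox protein that binds telomeres, was lower by all 3 of its probe sets, the brightest at 723.4 and 889.2 against 1776 and 1741 with PBS at 902.3 and 932.9. Rpp21, a protein subunit of ribonuclease P, measured 248.5 and 225.9 against 638.2 and 502.6 and Nrg2, a ligand of ErbB receptors, 160.4 and 98.1 against 387.2 and 323.6. For Ank3, Hmbox1, Rpp21 and Nrg2 the PBS arrays lay below both SC arrays.

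Angpt2, an antagonist ligand of the vessel receptor Tek, measured 182.2 and 204.1 with the nerve tumour and 500.6 and 653.4 with the subcutaneous tumour, a difference of -1.45 ± 0.21 (SE). Its PBS arrays lay apart, at 410.8 and 135.6. Dand5, a secreted antagonist of Nodal and BMP ligands, measured 33.3 and 67.8 against 252.4 and 266.1, and Omd, a small proteoglycan of mineralised tissue, 51.2 and 76.1 against 242.6 and 266.8. Klrg2 measured 96.6 and 183.6 against 382.6 and 414.7. Dpep1, a membrane dipeptidase, measured 43.4 and 29.8 against 113.1 and 710.6, and its SC arrays agreed in direction but not in size. In 10 of the 15 genes the N-inv mean lay under the cutoff, so they were tested because SC was bright. Counted over both rankings, both PBS arrays lay above both SC arrays in 14 of the 15 higher genes and below both SC arrays in 11 of the 15 lower ones, a description of genes that were chosen by their N-inv and SC values.

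**Figure D1:**
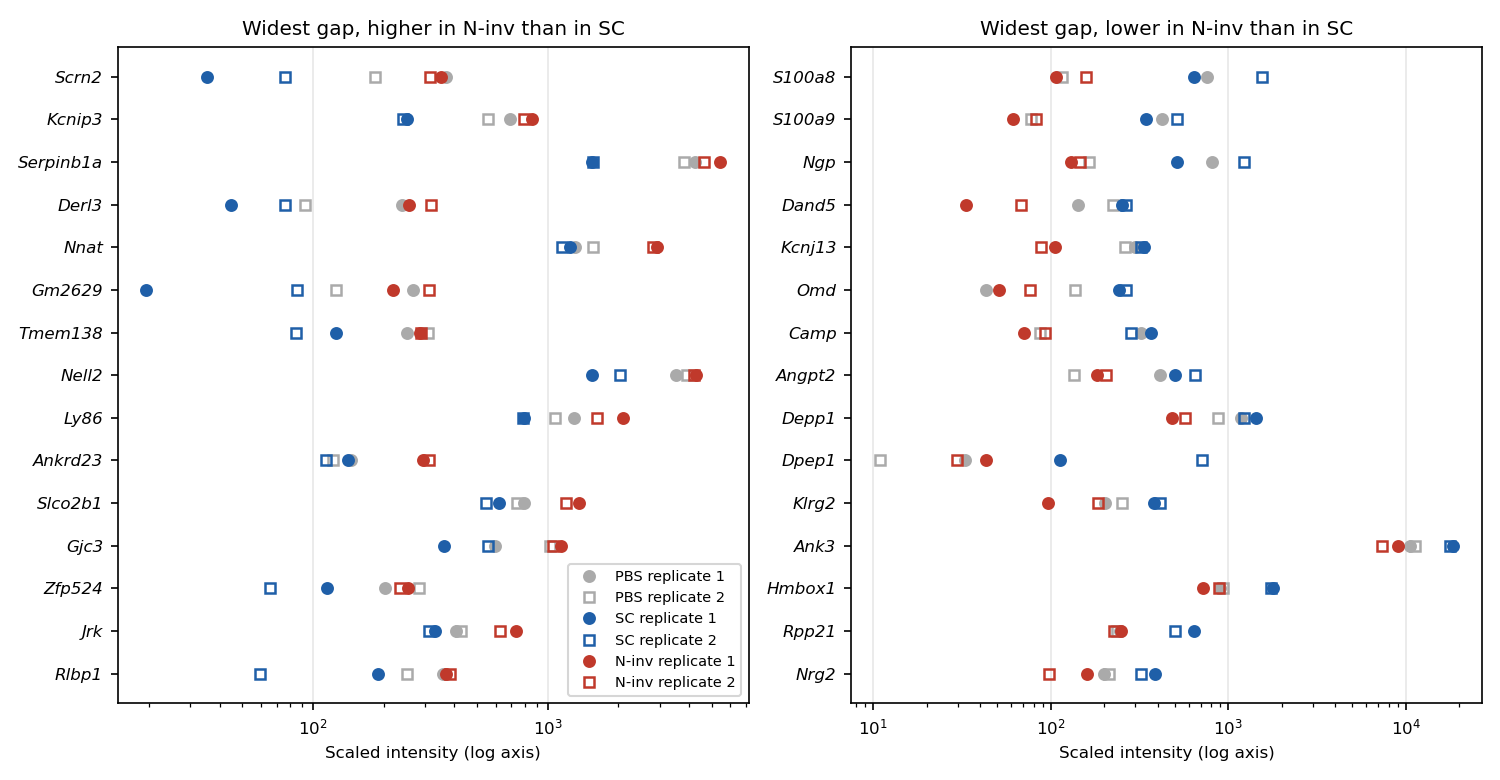
Scaled intensity (log axis) of the 15 genes with the widest gap in each direction, 1 point per array, for N-inv (red), SC (blue) and PBS (grey); filled circles are replicate 1 and open squares replicate 2. The red and blue points of each gene do not overlap because the genes were ranked by that gap; Kcnip3 and Serpinb1a have grey points beside the red, and Nnat has them beside the blue.

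Genes that mark microglia were higher with the tumour in the nerve, and both SC arrays lay on the same side for most of them. Of 20 measured genes of the microglia identity list, 16 were higher in N-inv, 13 of them without overlap and 2 were lower without overlap, against 25.3% and 11.4% of all genes. The median difference was 0.69, at 0.57 against SC replicate 1 alone and 0.61 against SC replicate 2 alone, where all genes had 0.06, 0.15 and -0.04. With the values as deposited 15 of the 20 were higher without overlap, where 20.8% of all genes were. In limma 0 genes of the list passed the adjusted threshold, and 11 of the 20 had an unadjusted p under 0.05, against 5.96% of all genes.

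Among surface receptors, P2ry12, through which microglia sense released nucleotides, measured 919.8 and 1018 with the nerve tumour and 496.9 and 349.9 with the subcutaneous tumour, a difference of 1.17 ± 0.23 (SE). All N-inv values lay above all others, with PBS at 779.7 and 739.2. Cx3cr1, the receptor for the neuronal chemokine fractalkine, measured 1652 and 1512 against 1003 and 442.5, and SC replicate 2 was the lower of the SC arrays, giving 0.64 against replicate 1 and 1.78 against replicate 2. Csf1r, the receptor on which microglia depend for survival, measured 20726 and 16481 against 10463 and 13013, and all 3 of its probe sets were higher without overlap. Siglech, a microglial lectin, measured 271.3 and 297.5 against 208.5 and 66.7 and P2ry13 609.1 and 461.7 against 344.7 and 156.0, both lowest in SC replicate 2.

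Aif1, which encodes the calcium-binding protein IBA1 of microglia and macrophages, measured 356.1 and 457.6 with the nerve tumour and 194.0 and 145.7 with the subcutaneous tumour. It was lower in both SC arrays, by 0.97 and 1.33. Selplg, the glycoprotein ligand of selectins, measured 1678 and 1536 against 879.3 and 864.6, and the SC arrays coincided. Laptm5, a lysosomal membrane protein of blood-derived cells, measured 4302 and 3276 against 1896 and 1808 by its brightest probe set, and 3 of its 4 probe sets did not overlap. Tmem119 measured 858.7 and 932.5 against 606.4 and 470.0 and Tyrobp, the signalling adaptor of several microglial receptors, 1111 and 1257 against 802.1 and 706.0. Fcrls, Olfml3 and Cd33 were among the genes that overlapped, and Sparc, which astrocytes and vessels also express, was lower without overlap, at 22682 and 23725 against 25109 and 28884.

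The phagocyte activation list had 13 of 24 measured genes higher and 0 lower without overlap. These were 54.2% and 0%, against 25.3% and 11.4% of all genes. Its median was 0.41, at 0.32 and 0.23 against SC replicates 1 and 2, where all genes had 0.15 and -0.04. Ptprc, the leukocyte antigen CD45, measured 761.9 and 991.0 against 494.9 and 396.9, and Mpeg1, a pore-forming protein of phagosomes, 1831 and 1546 against 886.7 and 934.5. Both SC arrays agreed within a small margin for Mpeg1, with differences of 0.91 and 0.83. Lyz2, lysozyme of macrophages, measured 1912 and 1783 against 1195 and 1283 and Lgals3bp 941.0 and 846.2 against 616.2 and 636.8. For Ctss, a cathepsin of antigen-presenting cells, the SC arrays agreed in direction only, at 7287 and 13159 below 15461 and 15283. Apoe, Cd9 and Lpl, genes of the disease-associated microglial state, overlapped, at 42388 and 46245 against 43376 and 46472 for Apoe. Levels in bulk tissue cannot tell more cells of a type from more RNA per cell, here and in each group below.

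**Figure D2:**
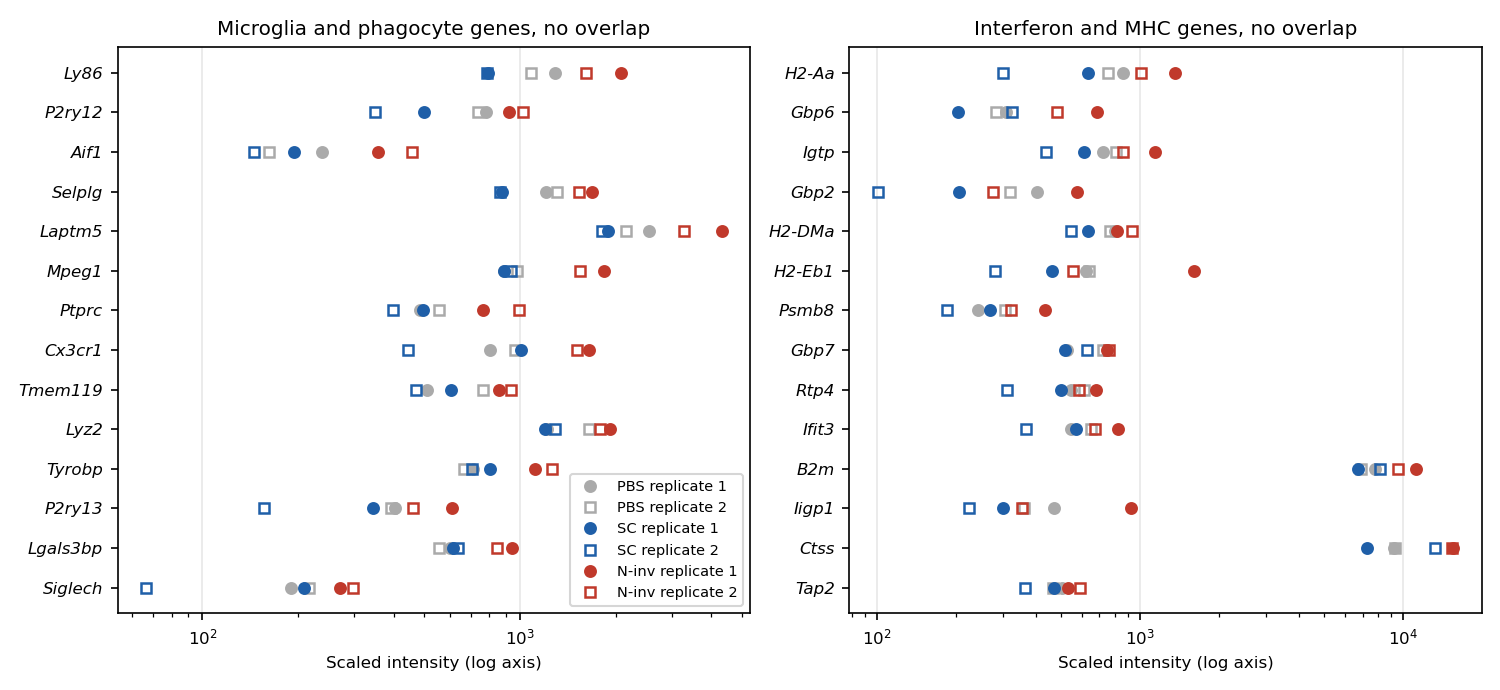
Scaled intensity (log axis) by array of genes higher in N-inv without overlap, from the microglia identity and phagocyte activation lists (left) and from the interferon response and MHC lists (right), up to 14 with the widest gap in each panel. N-inv is red, SC blue and PBS grey, with filled circles for replicate 1 and open squares for replicate 2; the SC points lie to the left in every row, close together for Ly86 and Selplg and apart for Cx3cr1 and Ctss.

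Genes induced by interferon were higher in N-inv as well. Of 29 measured genes 26 were higher, 12 without overlap, and 0 were lower without overlap, with a median of 0.42. Shares without overlap were 41.4% higher and 0% lower, against 25.3% and 11.4% of all genes. The median was 0.26 against SC replicate 1 and 0.43 against SC replicate 2, where all genes had 0.15 and -0.04. Without N-inv replicate 1 it was 0.18. The guanylate-binding proteins, large GTPases that attack the vacuoles of intracellular microbes, included several such genes. Gbp6 measured 684.5 and 483.9 with the nerve tumour and 203.2 and 326.2 with the subcutaneous tumour, a difference of 1.09 ± 0.29 (SE). Gbp2 measured 572.6 and 275.6 against 204.8 and 101.0, with the N-inv arrays themselves apart, and Gbp7 measured 745.3 and 761.5 against 517.4 and 628.0. The 2 SC arrays were both below N-inv for these 3 genes, while Gbp3 overlapped at 1194 and 548.0 against 553.1 and 537.5.

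The immunity-related GTPase Igtp measured 1138 and 860.0 with the nerve tumour and 611.6 and 440.3 with the subcutaneous tumour, with 0.67 against SC replicate 1 and 1.12 against SC replicate 2. Iigp1, of the same family, measured 926.0 and 354.9 against 301.7 and 222.7. Antiviral proteins were less uniform. Ifit3 measured 822.6 and 671.1 against 571.6 and 368.9 and Rtp4 677.6 and 586.5 against 498.0 and 311.7, with both SC arrays below, whereas Rsad2, at 521.0 and 460.6 against 502.8 and 496.7, and Oas2, at 250.1 and 191.1 against 264.3 and 207.1, overlapped. Stat2, Irf7 and Irf1, transcription factors of the pathway, overlapped, with Stat2 at 173.6 and 197.7 against 77.3 and 181.7, Irf7 at 252.9 and 196.2 against 237.3 and 106.3 and Irf1 at 1012 and 867.3 against 872.5 and 714.5. PBS lay within the range of the N-inv and SC arrays for several of these genes, for example at 405.5 and 321.1 for Gbp2 and 723.8 and 808.5 for Igtp.

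Promoter sequences were read to show the element through which interferon acts on these genes. RefSeq promoters of build GRCm38.p6, from 250 bases before to 50 after the gene start, were found for 24 of the 29 genes. The interferon-stimulated response element was searched on both strands as GAAA, any 2 bases and GAAA again, which reads as TTTC, 2 bases and TTTC on the other strand. It occurred in 14 of the 24 genes. Counted by promoter, it was in 15 of the 29 of these genes, or 51.7%, and in 3.44% of 32851 promoters of that length. The list holds genes picked as known interferon targets, so this share describes the list. The windows below run 5' to 3' along the gene's strand, upstream of its start, with the match in capitals.
Gbp2, chr3:142620564-142620653, + strand: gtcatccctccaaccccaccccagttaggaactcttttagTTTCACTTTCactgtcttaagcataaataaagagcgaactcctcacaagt
Gbp7, chr3:142530243-142530332, + strand: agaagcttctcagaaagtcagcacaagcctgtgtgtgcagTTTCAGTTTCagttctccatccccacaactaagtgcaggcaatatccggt
Igtp, chr11:58199482-58199555, + strand: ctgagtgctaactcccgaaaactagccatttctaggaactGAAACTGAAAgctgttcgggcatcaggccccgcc
Ifit3, chr19:34583367-34583456, + strand: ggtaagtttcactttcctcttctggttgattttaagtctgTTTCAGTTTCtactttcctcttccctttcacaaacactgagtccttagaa
Rsad2, chr12:26456523-26456612, - strand: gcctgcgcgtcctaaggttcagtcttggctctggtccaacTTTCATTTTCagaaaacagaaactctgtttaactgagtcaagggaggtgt
Gbp2, Gbp7, Igtp and Ifit3 were higher in N-inv than in both SC arrays, and Rsad2, which carries the element too, was not. A match is a run of letters and not a measured site.

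Antigen presentation genes lay in the same direction. All 7 measured genes of the MHC class II list were higher in N-inv, 4 without overlap, or 57.1% against 25.3% of all genes. Their median was 0.65, at 0.44 and 0.65 against SC replicates 1 and 2. Among the 4 was Ctss, described above with the phagocyte genes, and its difference of 0.65 was the list median. H2-Aa, the alpha chain of a class II molecule, measured 1356 and 1003 with the nerve tumour and 632.9 and 301.0 with the subcutaneous tumour. H2-Eb1 measured 1594 and 554.8 against 462.9 and 279.5, and N-inv replicate 1 was far above replicate 2. H2-DMa, which loads peptide onto class II molecules, measured 815.3 and 927.8 against 633.9 and 545.8 with both arrays of each group close. The beta chain H2-Ab1 and the invariant chain Cd74 overlapped, at 1270.2 and 686.5 against 766.5 and 400.4 and 802.4 and 533.3 against 633.3 and 461.0.

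In the MHC class I list 14 of 15 genes were higher, 7 without overlap, or 46.7% against 25.3% of all genes. The median was 0.35. It was 0.09 against SC replicate 1 and 0.32 against SC replicate 2, where all genes had 0.15 and -0.04, so the first of these values lies below that of all genes. B2m, the light chain of every class I molecule, measured 11134 and 9499 with the nerve tumour and 6731 and 8158 with the subcutaneous tumour, and the heavy chains H2-D1 and H2-K1 measured 8692 and 7219 against 5329.6 and 6626 and 5148 and 4189.8 against 3290.3 and 3801. Psmb8, a subunit of the immunoproteasome, measured 436.0 and 322.7 against 269.3 and 185.2, and the peptide transporter subunit Tap2 measured 533.6 and 588.8 against 468.3 and 364.0. In these 5 genes N-inv exceeded both SC arrays. The other transporter subunit, Tap1, overlapped at 311.0 and 182.0 against 151.9 and 185.7.

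Genes of myelin and its cells were also higher in N-inv than in SC, but with unequal steps. Of 27 measured genes 23 were higher, 18 without overlap, and 2 were lower without overlap. Shares without overlap were 66.7% and 7.41%, against 25.3% and 11.4% of all genes. With the values as deposited the counts without overlap were 14 and 3, where the shares of all genes were 20.8% and 19%. The median was 0.30, at 0.26 and 0.35 against SC replicates 1 and 2. Mag, a myelin glycoprotein next to the axon, measured 10963 and 9051 with the nerve tumour and 6840.2 and 5195 with the subcutaneous tumour, and Aspa, which breaks down N-acetylaspartate in oligodendrocytes, 6179 and 5792 against 4097 and 3239. PBS lay near N-inv, at 9243 and 8539 and 6076 and 6040.1. SC replicate 2 was the lowest array for Mog, at 3612 and 3054 against 2412 and 1253, for Opalin, at 1891 and 1067 against 879.2 and 260.8, and for Ugt8a, an enzyme of myelin galactolipids, at 16459 and 16953 against 14998 and 6999. Sox10, the transcription factor that defines the oligodendrocyte lineage, measured 3202 and 3822 against 2739 and 923.0, so its difference was 0.35 against SC replicate 1 and 1.89 against SC replicate 2. The brightest myelin genes differed little. Mbp was lower in N-inv without overlap, at 73592 and 78349.7 against 78783 and 81783, and Mobp overlapped, at 58628 and 57003 against 55169.6 and 63318. Myrf, the factor that drives myelin genes, was also lower without overlap, at 1815 and 2043 against 3111 and 2170.3.

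All 15 measured genes of oligodendrocyte precursors were higher, 6 without overlap, or 40% against 25.3% of all genes. The median of 0.19 was 0.35 against SC replicate 1 and 0.04 against SC replicate 2, where all genes had 0.15 and -0.04. Gpr17, a receptor of cells that are about to differentiate, measured 591.3 and 672.9 against 352.0 and 158.5, and the transcription factor Nkx2-2 measured 714.9 and 1062 against 511.7 and 290.2. Each SC array was below N-inv for both genes.

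Enzymes of cholesterol synthesis showed small differences in 1 direction. All 20 measured genes were higher in N-inv, 16 without overlap and 0 lower, or 80% and 0% against 25.3% and 11.4% of all genes. With the values as deposited the counts without overlap were 15 and 0, where the shares of all genes were 20.8% and 19%. The median of 0.24 was 0.34 against SC replicate 1 and 0.15 against SC replicate 2, where all genes had 0.15 and -0.04. Cyp51, lanosterol demethylase, stood furthest, at 3681 and 4103 with the nerve tumour and 2385 and 2552 with the subcutaneous tumour, a difference of 0.65 ± 0.19 (SE), and 2 of its 3 probe sets did not overlap. Mvk, mevalonate kinase, measured 1022 and 1028 against 789.2 and 728.3, Nsdhl 4560.5 and 4309 against 2953 and 3716 and Dhcr7, which makes cholesterol in the last step, 2718 and 2240.1 against 1906 and 1880.1. Hmgcs1, which makes the substrate of the rate-limiting reductase and is a target of SREBP factors, measured 39800.1 and 37840.2 against 33411 and 35347. Both SC arrays lay below N-inv for these 5 genes, and PBS lay near N-inv, at 4023 and 4299.8 for Cyp51 and 37689 and 41576 for Hmgcs1. Insig1 and Ebp overlapped.

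The sterol regulatory element was searched as TCACNCCAC on both strands in the same promoter windows. It was found in 1 of 16 genes of the list with a promoter, Hmgcs1. Counted by promoter, it was in 1 of 19 of these genes, or 5.26%, and in 1.24% of all promoters. It is shown in capitals.
Hmgcs1, chr13:119690174-119690262, + strand: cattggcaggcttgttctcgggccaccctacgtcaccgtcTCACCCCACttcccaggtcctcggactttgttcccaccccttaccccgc
The promoters of the other 15 genes do not hold these letters within the 300 bases read, which says nothing about the factor.

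Several transporters and channels of resting astrocytes were higher in N-inv. In the homeostatic astrocyte list 16 of 22 were higher in N-inv, 9 without overlap and 0 lower. These were 40.9% and 0%, against 25.3% and 11.4% of all genes. With the values as deposited the counts without overlap were 10 and 3, where the shares of all genes were 20.8% and 19%. The median was 0.19, at 0.38 against SC replicate 1 and 0.04 against SC replicate 2, where all genes had 0.15 and -0.04. Aqp4, the water channel of astrocyte endfeet, measured 27762 and 25793 with the nerve tumour and 16726 and 19859.6 with the subcutaneous tumour, and all 3 of its probe sets did not overlap. Mlc1, a membrane protein of the same endfeet, measured 7939 and 7779 against 4776 and 5709.7, the neurotensin receptor Ntsr2 12722 and 11726 against 7318 and 9206 and the serine and alanine transporter Slc7a10 3203 and 3087 against 2082 and 1834. N-inv exceeded both SC arrays for these 4 genes. The glutamate transporters Slc1a2 and Slc1a3 overlapped, at 38566 and 37959.6 against 28348 and 39211 and 1344 and 1909 against 1864 and 2122, and so did Glul and Aldh1l1.

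Gfap, the intermediate filament by which reactive astrocytes are recognised, measured 20043 and 18765 with the nerve tumour and 4534 and 15021 with the subcutaneous tumour and 6511 and 7745 in PBS. Both SC arrays lay below N-inv, and all 3 probe sets did, but the SC arrays disagreed in size. The difference was 2.09 against SC replicate 1 and 0.37 against SC replicate 2, or 1.23 ± 0.53 (SE) against both. Of 33 genes of reactive astrocytes 21 were higher, 13 without overlap, and 2 were lower without overlap. Shares without overlap were 39.4% and 6.06%, against 25.3% and 11.4% of all genes. The list median of 0.17 was 0.31 against SC replicate 1 and 0.08 against SC replicate 2, where all genes had 0.15 and -0.04. Serpina3n, a protease inhibitor of the acute phase, measured 3740.4 and 3297 against 1223 and 2685, Aspg 761.2 and 641.6 against 259.0 and 497.7 and the oncostatin M receptor Osmr 1588 and 1489.9 against 807.5 and 1303. In each SC replicate 2 came nearer to N-inv than SC replicate 1 did. Emp1, at 392.4 and 449.5 against 227.0 and 247.9, and the sphingosine receptor S1pr3, at 1007 and 1072 against 833.9 and 629.4, had SC arrays in closer agreement. Vim and Nes, the other filament genes of the reactive cell, overlapped, at 7912 and 7270.5 against 6199 and 8581 and 624.7 and 982.4 against 613.5 and 914.4, as did Cd44, Socs3 and Lcn2.

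Neuronal injury genes split on the SC arrays. Of 32 genes of the axon injury response 24 were higher in N-inv, but 8 were higher and 1 lower without overlap, which is 25.0% and close to the 25.3% of all genes. The median was 0.38 against SC replicate 1 and -0.03 against SC replicate 2, where 28 and 13 of the 32 were higher. Sprr1a, a small proline-rich protein of regenerating axons, measured 4048 and 3289.9 with the nerve tumour and 182.8 and 2249.8 with the subcutaneous tumour, with 110.0 and 138.4 in PBS. SC replicate 2 stood near N-inv and SC replicate 1 near PBS, so the difference was 4.14 against SC replicate 1 and 0.69 against SC replicate 2. Atf3, a transcription factor induced in neurons with cut axons, overlapped, at 587.4 and 770.4 with the nerve tumour and 162.3 and 665.3 with the subcutaneous tumour, a difference of 1.90 or 0.02. Tubb6, at 634.0 and 600.9 against 243.0 and 601.5, and Vgf, at 6184 and 6247 against 3466 and 6330.1, had the same arrangement.

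A smaller number of injury genes had SC arrays that agreed. Sdc1, a heparan sulfate proteoglycan, measured 275.7 and 298.0 with the nerve tumour and 158.8 and 148.0 with the subcutaneous tumour, a difference of 0.81 ± 0.18 (SE). Gap43, the growth cone protein, measured 7795 and 7252 against 4796 and 5960.0, Stmn4 8498 and 8607 against 6237 and 5163 and the peptidase Ecel1 2235 and 2076 against 1490.4 and 1789. The neuropeptide galanin, Gal, measured 1764 and 1231 against 407.0 and 988.8, lower in both SC arrays but by 1.79 and 0.56. Tac1, the precursor of substance P, measured 8958 and 9112 against 5354 and 6963, with PBS lowest at 3307 and 4669. The list of pain neuropeptides and receptors, however, had 7 of 28 genes higher without overlap, or 25%, as against 25.3% of all genes. Its median was 0.09, at 0.15 and -0.0002 against SC replicates 1 and 2. Jun and Gadd45a overlapped, with SC replicate 2 the highest array for both. Fos, read as an activity marker, overlapped at 5944 and 7564 against 5952 and 5842.

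**Figure D3:**
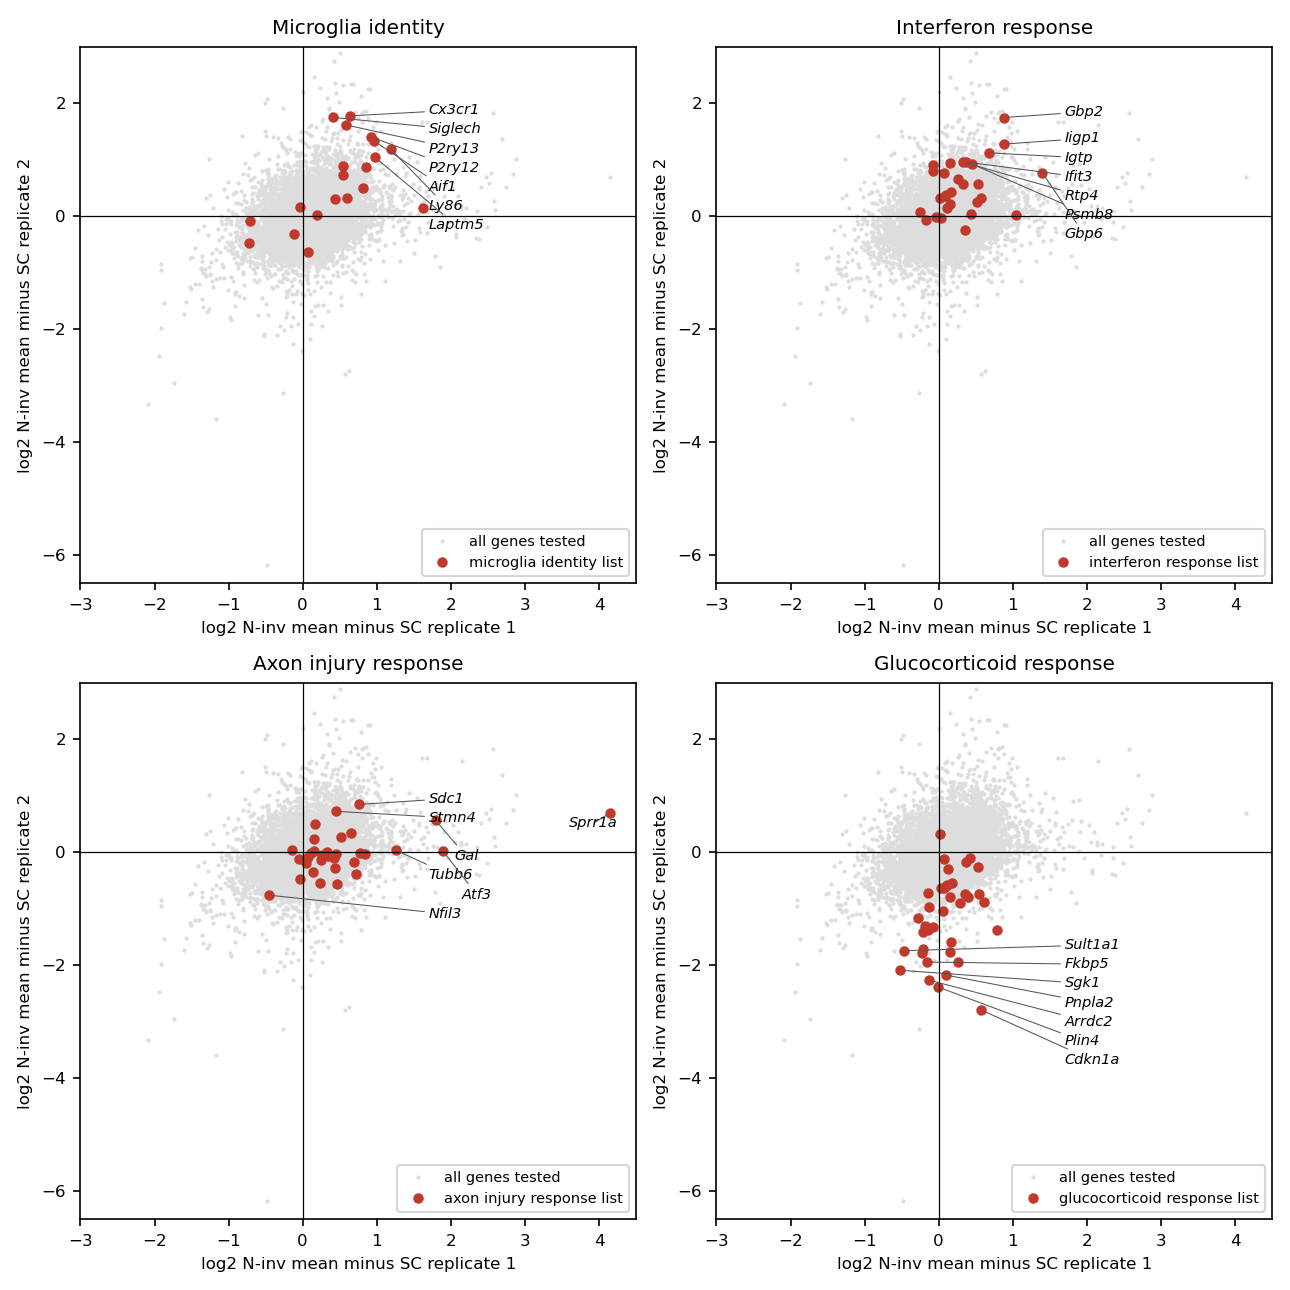
Log2 difference of the N-inv mean from SC replicate 1 (horizontal) and from SC replicate 2 (vertical) for genes of 4 lists (red) over all genes tested (grey). Microglia genes lie mostly in the upper right, where both SC arrays are lower; all but 1 of the glucocorticoid response genes lie below 0 on the vertical axis and on either side of 0 on the horizontal one, with medians of 0.08 and -1.0, and Sprr1a lies far to the right.

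Genes of the response to glucocorticoids, the adrenal stress hormones, were the clearest case in which the SC arrays disagreed. Against SC replicate 2 only 1 of 38 genes was higher in N-inv and the median was -1.0. Against SC replicate 1, the array without Xist, 24 of 38 were higher and the median was 0.08, under the 0.15 of all genes. Only 6 of the 38 were lower without overlap and 1 was higher, or 15.8% and 2.63% against 11.4% and 25.3% of all genes. With the values as deposited these counts were 11 and 0, where 19% of all genes were lower and 20.8% higher without overlap. Fkbp5, a chaperone of the hormone receptor that the hormone induces, measured 1284 and 1290.2 with the nerve tumour and 1445 and 5028 with the subcutaneous tumour, with 1183 and 1212 in PBS. Cdkn1a, an inhibitor of the cell cycle, measured 3115 and 3038 against 2065 and 21448, Pnpla2, a triglyceride lipase, 713.6 and 718.6 against 668.8 and 3321 and Plin4, of the lipid droplet, 758.7 and 470.2 against 601.7 and 3234. In all 4 SC replicate 2 stood alone and SC replicate 1 lay near N-inv and PBS.

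Sult1a1, a sulfotransferase, was the member with both SC arrays furthest above N-inv, at 882.4 and 954.2 against 1275 and 3131, or -0.46 and -1.74. Klf15, a transcription factor of fasting metabolism, at 2618 and 1822 against 2661 and 4938, Nfkbia, the inhibitor of NF-kappaB, at 12501 and 10348 against 12604 and 29490.0, and Cebpb, at 497.6 and 453.1 against 524.6 and 951.0, were also above N-inv in both SC arrays. Against SC replicate 1 alone their differences were small, at -0.28, -0.15 and -0.14. The receptor itself, Nr3c1, was the gene that was higher in N-inv without overlap, at 4009 and 4009 against 3976 and 3184. Sgk1, a kinase that the hormone induces, overlapped, at 17272 and 5832 with the nerve tumour and 14382 and 42866 with the subcutaneous tumour.

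The ranking of genes by the distance between the SC arrays named further genes of this kind. Sgk3, a relative of Sgk1, measured 1401 and 1364 against 890.4 and 9388 and the small Maf factor Maff 146.5 and 136.7 against 176.0 and 1434, both high in SC replicate 2. Ctla2a, a cathepsin inhibitor, measured 3578 and 3027 against 892.3 and 6195, Mycl 251.0 and 198.7 against 22.7 and 303.9, 2900093K20Rik 212.2 and 255.3 against 21.0 and 267.5 and Alas2, the haem synthesis enzyme of red cells, 549.8 and 606.6 against 93.5 and 758.6, and SC replicate 1 was the lowest of the 4 arrays for all of them. Igsf23, at 212.1 and 210.9 against 306.0 and 31.2, was low in SC replicate 2. For each of these genes but Maff the difference from N-inv had opposite signs against the 2 SC arrays.

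**Figure D4:**
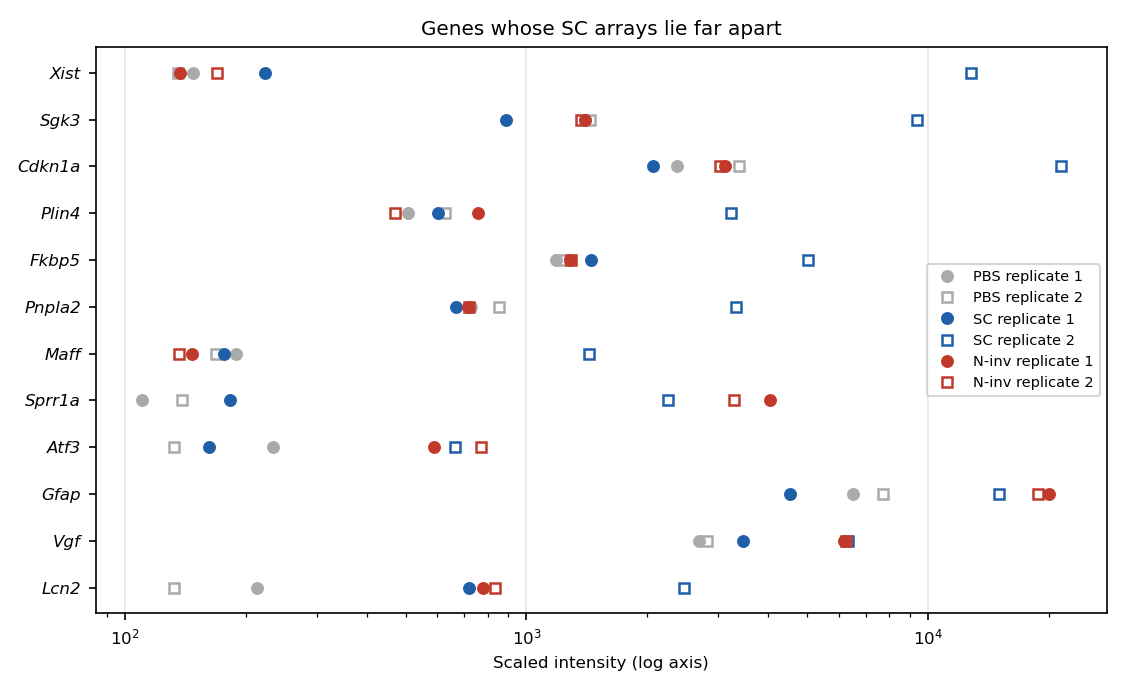
Scaled intensity (log axis) by array of 12 genes chosen after their values were seen because the SC arrays lie apart, with N-inv in red, SC in blue and PBS in grey, filled circles for replicate 1 and open squares for replicate 2. SC replicate 2 stands alone to the right for Xist, Sgk3, Cdkn1a, Plin4, Fkbp5, Pnpla2, Maff and Lcn2, and lies beside N-inv for Atf3, Vgf and, less closely, Sprr1a and Gfap.

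Neutrophil granule genes lay below both SC arrays in N-inv, and they varied between the control arrays as well. S100a8 and S100a9, the subunits of calprotectin, measured 107.1 and 158.4 with the nerve tumour and 638.2 and 1544 with the subcutaneous tumour for the first and 61.4 and 82.5 against 344.4 and 510.9 for the second. The difference for S100a8 was -2.71 ± 0.43 (SE), at -2.09 and -3.33 against SC replicates 1 and 2, and for S100a9 -2.21 ± 0.25 (SE), at -1.94 and -2.47. Ngp, neutrophilic granule protein, measured 129.7 and 145.3 against 514.4 and 1227, Camp, the cathelicidin, 70.4 and 92.9 against 364.9 and 283.4 and Ltf, lactoferrin, 181.4 and 97.4 against 294.8 and 366.8. In PBS replicates 1 and 2 the levels were 759.4 and 115.6 for S100a8, 425.8 and 77.8 for S100a9, 812.7 and 165.0 for Ngp and 321.6 and 86.7 for Camp, so that 1 PBS array lay with SC and the other with N-inv. All 5 genes had an N-inv mean under the cutoff and were tested because SC was bright, and 8 of the 19 listed genes passed the filter. Below the filter Prtn3, a neutrophil protease, was higher in N-inv without overlap, at 192.6 and 162.7 against 39.2 and 131.8. Elane, another, was lower, at 28.2 and 71.9 against 153.6 and 180.4. So were Chil3, at 24.5 and 7.3 against 79.2 and 460.0, and Cxcr2, at 15.2 and 27.1 against 96.1 and 154.6, while Mpo, Mmp8 and Ccr2 overlapped. Summed over those 8, the list measured 2225 and 2228 in N-inv, 3549.7 and 7331 in SC and 4190.5 and 1744 in PBS. Lcn2, which reactive astrocytes also express, overlapped at 778.9 and 835.0 against 719.2 and 2472, and Mmp9 and Plac8 overlapped too.

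Set side by side over all lists with at least 5 tested genes, the lists fell into those on which the SC arrays agreed and those on which they did not. The microglia identity and MHC class II lists kept a median of at least 0.44 against each SC array alone. The neutrophil list is not read this way, since most of its tested genes passed the filter through SC alone and its PBS arrays lay as far apart as the groups did. The interferon, phagocyte activation, myelin and cholesterol synthesis lists kept medians of the same sign at a smaller size. The lists of neurons and of basic cell functions had small medians over both SC arrays and fewer genes higher without overlap than the 25.3% of all genes, or about as many. Inhibitory neuron genes had a median of 0.05, at 0.17 and -0.15 against SC replicates 1 and 2, with 6.67% higher and 26.7% lower without overlap. Excitatory neuron genes had a median of -0.08, at -0.02 and -0.26, with 8.33% higher and 25.0% lower, where 11.4% of all genes were lower. Synaptic vesicle genes had 0.02, at 0.15 and -0.05, and motor and preganglionic neuron genes 0.07, at 0.22 and -0.04. Oxidative phosphorylation genes, 71 in number, had a median of -0.0011, at 0.08 and -0.09, with 18.3% higher and 25.4% lower, and 42 ribosomal protein genes had -0.03, at 0.03 and -0.08, with 9.52% higher and 19% lower.

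**Figure D5:**
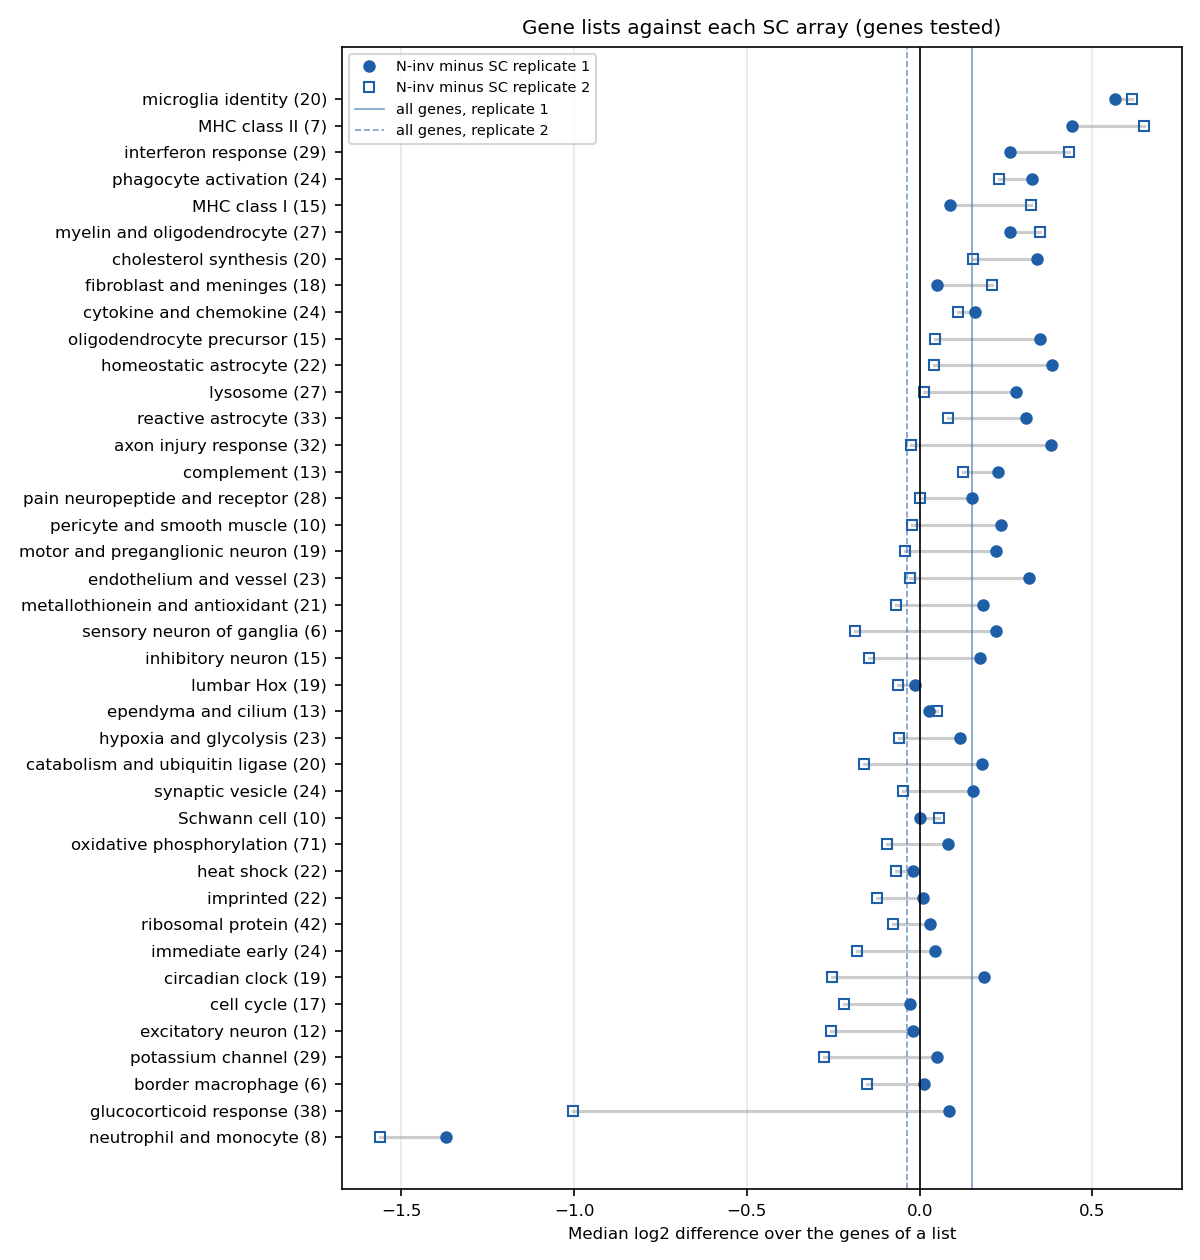
Median log2 difference of each gene list against SC replicate 1 (filled circles) and SC replicate 2 (open squares), with the number of genes tested in brackets; vertical lines are the medians of all genes, 0.15 and -0.04. The microglia identity list lies to the right of both lines in both comparisons, the neutrophil list, of 8 genes, lies to the left, and the glucocorticoid response list is joined by the longest line.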

How the data were processed

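RNA of lumbar cord, labelled as biotinylated cRNA, was hybridised to 3' expression arrays made by Affymetrix, per the labels' protocols. The deposited table holds 1 linear intensity per probe set and array, scaled by the authors before deposit (the 2% trimmed mean was 1000 on each array). How probes were summarised is not stated in the sources used here. Of 45101 probe sets, 64 controls were left out. The platform annotation gave 1 symbol for 34945 of the other 45037, several for 932 and none for 9160, and only the first kind is named. The RefSeq gene table (GRCm38.p6) was matched by Entrez ID for 34741.

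The 4 arrays were brought to a shared median of 250.35 and log-transformed as log2(intensity + 25.035), which understates differences of dim genes. Probe sets with a 4-array mean above the 40th percentile (152.36) went into limma 3.58.1, run in R 4.3.3 (lmFit, eBayes, two-sided, 2 residual and 3.86 prior degrees of freedom, Benjamini-Hochberg, threshold 0.05). A gene is its brightest tested probe set. The number of arrays limits the precision. On simulated data for N-inv against SC over 27022 probe sets, 20 of 67 changed by log2 1 were called, 66 of 67 by 2 and 66 of 66 by 3, with 19 of 26822 unchanged. The simulation drew both groups with the same spread, taken from limma after its variance was shared across probe sets. In the measured arrays the SC pair differed more, and S100a8 at -2.71 and Scrn2 at 2.19 were not called. The simulated rates therefore do not say how often such changes would be found here.

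Named genes were the 15 per direction with the widest gap between groups, up to 6 per list, the 10 with the most distant SC arrays, and Gfap, Aif1, Fos, Atf3, Xist and Y-linked genes. A member named outside the rule, mostly for overlapping or for its role, was chosen after its values were seen. The 46 lists, their members and the comparison were chosen with earlier results of these data known, and lists share genes. Alternatives were all 6 arrays, a replicate block, other scalings, pseudocounts and filters, a variance trend, probe set means and leaving out each array. Correlation of same-numbered arrays' deviations was -0.035. With so few arrays, this value cannot decide whether same-numbered arrays belong together.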

Additional observations from a re-analysis of the deposited data

How the results depend on the processing

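With all 6 arrays in the fit, the values as deposited, quantile normalization, either other pseudocount, no filter, a filter at the 60th percentile or a variance trend, limma called 0 probe sets each time, as in the reported fit. Whether same-numbered arrays belong together is not known, and with the replicate number as a block 2 probe sets passed, Pip5k1a and the second one of Depp1. Leaving out 1 array gave 0 to 31 called probe sets: 31 without N-inv replicate 1, 23 without N-inv replicate 2 and 0 without either SC array; the lone array is then assumed to vary like the others. Without N-inv replicate 1 and without N-inv replicate 2, in that order, differences were -2.48 and -2.95 for S100a8 and -2.05 and -2.36 for S100a9. They were 2.12 and 2.27 for Scrn2, 2.96 and 2.36 for Pip5k1a and -2.77 and -3.25 for the second Depp1 probe set. Both fits hold the same SC arrays, so their likeness is no separate support. In each of these probe sets the mean of 1 group lay under the filter cutoff, so it was tested because the other group was bright. Lower genes without overlap numbered 2589 with no filter, 2443 after quantile normalization and 2405 as deposited, against 1441. Leaving out 1 array gave 2437 to 5567 lower and 4446 to 7629 higher genes, a rule with fewer arrays to satisfy. The phagocyte activation median was 0.21 at the 60th percentile filter.

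Over the fits without 1 array, list medians ranged from 0.57 to 0.74 for microglia identity, 0.23 to 0.42 for phagocyte activation, 0.18 to 0.47 for interferon response, 0.15 to 0.34 for cholesterol synthesis, 0.041 to 0.38 for homeostatic astrocyte and 0.087 to 0.35 for MHC class I. Those of MHC class II, myelin, reactive astrocyte and neutrophil genes kept their sign, and those of axon injury and glucocorticoid response genes did not (-0.03 to 0.38 and -1.0 to 0.08). The difference of Uty turned to -0.020 after quantile normalization, -0.028 as deposited and -0.13 without SC replicate 1. Against SC replicate 2 and SC replicate 1 alone, in that order, differences of opposite sign were -0.18 and 2.49 for 2900093K20Rik, -0.38 and 2.35 for Alas2, -0.91 and 1.85 for Ctla2a, -0.33 and 0.89 for Eif2s3y, -0.40 and 2.38 for Mycl, -2.79 and 0.57 for Cdkn1a, 2.07 and -0.49 for Igsf23 and -2.74 and 0.62 for Sgk3; the cause was not tested. Genes near or under an intensity of 152.36 in a group are limited by signal over background.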

Other observations

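Chemokine and cytokine genes, a list not described above, had 9 of 24 measured members higher in N-inv without overlap and 2 lower, or 37.5% and 8.33% against 25.3% and 11.4% of all genes. The median was 0.20, at 0.16 and 0.11 against SC replicates 1 and 2, and the first of these is close to the 0.15 of all genes. Ccl7, a chemokine that attracts monocytes, measured 359.5 and 247.1 with the nerve tumour and 61.8 and 144.2 with the subcutaneous tumour, a difference of 1.42 ± 0.36 (SE), and PBS lay with SC at 134.1 and 61.7. Il33, a nuclear cytokine that oligodendrocytes and astrocytes of the cord hold, measured 4250.1 and 2807 against 2215 and 1523, with PBS above SC at 4597 and 4149. The tumour necrosis factor receptor Tnfrsf1a measured 2088 and 1669 against 971.9 and 1347. In the complement list 5 of 13 genes were higher without overlap and 2 lower, or 38.5% and 15.4%, with a median of 0.16 that was 0.23 and 0.13 against SC replicates 1 and 2. Cfb, of the alternative pathway, measured 221.4 and 216.9 against 164.9 and 139.1, with 18.7 and 79.5 in PBS, and C1ra measured 324.3 and 227.8 against 211.7 and 74.0, with 47.0 and 102.4 in PBS. Both SC arrays lay below N-inv for these 5 genes. Of 6 tested genes of macrophages at the borders of the cord 3 were higher and 3 lower, with a median of -0.12, at 0.01 and -0.15 against SC replicates 1 and 2. F13a1 and Lyve1 were lower in N-inv than in both SC arrays, at 363.4 and 385.9 against 558.6 and 558.1 and 242.1 and 234.6 against 268.9 and 315.3, and Mrc1, the mannose receptor, was higher, at 579.5 and 606.1 against 421.2 and 522.7.

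Potassium channel genes had 4 of 29 members higher and 8 lower in N-inv without overlap, or 13.8% and 27.6% against 25.3% and 11.4% of all genes. With the values as deposited the counts were 5 and 15, where 20.8% and 19% of all genes did not overlap. The median was -0.11, and it was 0.05 against SC replicate 1 and -0.28 against SC replicate 2. Besides Kcnj13, the M-current subunit Kcnq5 measured 323.6 and 503.6 against 696.0 and 716.0, and both SC arrays lay above, by 1 of its 3 probe sets. Kcnip2, an accessory subunit of the same family as Kcnip3, measured 544.7 and 691.9 against 1034 and 727.6, opposite in direction to Kcnip3. Among positional genes of the lumbar cord, Hoxd10 measured 2284 and 3067 with the nerve tumour and 4667 and 4337 with the subcutaneous tumour, with 2400.5 and 2932 in PBS, while Hoxa10 and Hoxc10 overlapped. The median of the 19 Hox genes was 0.05, at -0.01 and -0.06 against SC replicates 1 and 2. Of 18 genes of fibroblasts and meninges 6 were higher without overlap and 1 lower, or 33.3% and 5.56%. The list median was 0.22, at 0.05 and 0.21 against SC replicates 1 and 2, where all genes had 0.15 and -0.04. Collagen Col3a1 was higher, at 2494 and 2414 against 1794 and 1146, Ptgds, which makes prostaglandin D, was lower, at 29924 and 34258 against 49168 and 56625, and Dcn, Col1a1 and Lum overlapped. Of 23 genes of endothelium and vessels 5 were higher without overlap and 4 lower. These were 21.7% and 17.4%, not far from the 25.3% and 11.4% of all genes. The list median was 0.07, at 0.32 and -0.03. Vwf was higher, at 4945 and 3064 against 2822 and 2509, and Esam, an adhesion molecule of endothelium, was lower, at 1054 and 1088 against 1196 and 1475. Ccn2, a matrix protein induced by mechanical and growth factor signals, measured 1754 and 1716 against 2063 and 7111, high in SC replicate 2.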
